A study of Homo sapiens with 12 samples.

Results

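The genes described here are 35 genes of homologous recombination and of the Fanconi anemia pathway, which take part in the repair of double-strand breaks and DNA interstrand crosslinks. They were chosen by name, with earlier results of these data known, so the shares given for them are descriptions, and all 35 were found among the 58037 Ensembl identifiers of the RNA-seq counts, of which 56993 had a gene symbol. The RNA came from 2 human prostate cancer cell lines. LNCaP-AI is an androgen-independent line that was derived from LNCaP-lineage cells by prolonged culture without androgen, and DU-145 is an established line that does not depend on androgen. Per the study's methods, LNCaP-AI cells were established in phenol red-free medium with charcoal-stripped serum. DU-145 cells were grown in medium with fetal bovine serum that was not described as stripped. Line and medium therefore cannot be told apart in any comparison between the lines. By the study's legends and methods, every sample of both lines, controls included, carried the lentiviral tet-MUC1shRNA vector after puromycin selection. In this vector doxycycline (DOX) turns on a short hairpin RNA against MUC1. The 4 groups were LNCaP-AI/tet-MUC1shRNA with vehicle or with DOX and DU-145/tet-MUC1shRNA with vehicle or with DOX, each kept for 7 days, DOX being given at 500 ng/ml, with 3 samples in each group and 12 in all. The sample labels write shCTL and shMUC1 where the study's text describes vehicle and DOX treatment of cells with the same vector. DOX-treated cells with a control hairpin were not analysed here. An action of the drug and one of the loss of MUC1 cannot be told apart.

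Homologous recombination copies the lost sequence from the sister chromatid and so works mainly in S and G2 phase. The break is first trimmed to single strands, BRCA1 and BRCA2 with their partners then load a recombinase on the strand, the recombinase finds the matching sequence, and helicases take the joined molecules apart. The Fanconi core complex senses a crosslink that stalls a replication fork and attaches ubiquitin to the FANCD2 and FANCI pair, after which the lesion is cut out and handed to the same recombination proteins. Inherited loss of several of these genes predisposes to prostate, breast and ovarian cancer, and tumors without them are sensitive to inhibitors of poly(ADP-ribose) polymerase.

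Total counts were 10423437 to 13544153 per sample in DU-145 cells and 16569613 to 26961777 in LNCaP-AI cells. For MUC1, the target of the hairpin, the counts were 74, 60 and 59 with vehicle and 3, 3 and 3 with DOX in DU-145 cells, and 36, 25 and 52 against 8, 6 and 3 in LNCaP-AI cells. KLK3, KLK2, FOLH1 and HOXB13, which mark luminal prostate cells, were at 0 counts throughout the DU-145 samples, whereas they averaged 235 to 933 CPM (counts scaled to library size, TMM-normalized) in LNCaP-AI cells. The epithelial genes EPCAM, KRT8, KRT18 and CDH1 were present in both lines. Of 8 markers of other cell types, PTPRC, CD3E and CD68 of leukocytes had at most 5 counts in any sample, while COL1A1 averaged 20.7, PDGFRB 4.51 and PECAM1 1.23 CPM in LNCaP-AI cells, and the summed level of the 8 overlapped between the treatments in both lines. The LNCaP-AI samples did not divide by treatment first. Their first principal component (log2 CPM, 82.5% of the variance) set vehicle 1 together with DOX 2 and DOX 3, and apart from them DOX 1 together with vehicle 2 and vehicle 3, and nothing in the labels names this division. The samples that stood with the other treatment were thus vehicle 1 and DOX 1, whose MUC1 counts of 36 and 8 lay with those of their labelled groups. The labels were kept, and whether the pair was exchanged or handled apart was not tested further. The treatments parted on the second component, with 12.3%. In DU-145 cells the treatments parted on the first, with 71.1%. The results in LNCaP-AI cells are therefore also given within each side of the division. The extract protocol speaks of triplicate culture without saying whether the 3 were independent experiments, so p values measure the spread between these samples. By GENCODE release 44, 20 of the 35 genes overlap another annotated gene, 18 of them on the opposite strand, among them FANCI with POLG, FANCC with AOPEP, FANCA with ZNF276, FANCF with GAS2, FANCL with VRK2, XRCC3 with KLC1, RAD54L with LRRC41, NBN with OSGIN2, CHEK2 with HSCB and ATM with C11orf65. On the same strand 6 have such a neighbour, RAD54B (FSBP), CHEK1 (STT3A), BRCA1, RAD51D, FANCB and ATR. The strand setting of the counting is not given in the sources used here, and reads of these pairs may have been split or shared.

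In DU-145 cells 24 of the 35 repair genes were lower with DOX and 1, RBBP8, was higher. In LNCaP-AI cells 18 were lower and none was higher. A gene was called at an adjusted p under 0.05 from edgeR's quasi-likelihood test with Benjamini-Hochberg adjustment over all genes tested, and every adjusted p here comes from that test. All 35 passed the filter on low counts in both lines. Among the 13644 genes tested in DU-145 cells 25.3% were called lower and 26.3% higher, and among the 16030 tested in LNCaP-AI cells 5.52% were called lower and 7.22% higher. The repair genes that were called lower made up 68.6% of the list in DU-145 cells and 51.4% in LNCaP-AI cells. Their median log2 fold change was -0.36 in DU-145 cells, where the median of all genes was 0.00, and -0.72 in LNCaP-AI cells, where that of all genes was -0.05. The log2 fold change was negative for 31 of the 35 in DU-145 cells, for 34 in LNCaP-AI cells and for 30 in both. Over all genes tested it was negative for 6814 of 13644 in DU-145 cells and for 8796 of 16030 in LNCaP-AI cells. At an unadjusted p under 0.05, 26 were lower and 1 were higher in DU-145 cells, and 26 were lower and 0 higher in LNCaP-AI cells. Of all genes tested, 3838 were lower and 3930 higher at that threshold in DU-145 cells. In LNCaP-AI cells 2339 of all genes were lower and 2664 higher at it. Every DOX sample lay below every vehicle sample for 27 genes in DU-145 cells and for 25 in LNCaP-AI cells, against 27.7% and 17.6% of all genes tested. Epithelial markers in DU-145 cells and luminal markers in LNCaP-AI cells moved the other way beside the repair genes. The summed level of 4 epithelial markers was 824 to 878.8 CPM with vehicle and 1900 to 2018 CPM with DOX in DU-145 cells, with 4 of 4 called higher, and 1336 to 1419 against 1481 to 1687 CPM in LNCaP-AI cells, with 0 of 4 called. That of 5 luminal markers was 1041 to 1638 against 1998 to 2580 CPM in LNCaP-AI cells, with 3 of 5 called higher (KLK3, KLK2 and SLC45A3). In DU-145 cells, where SLC45A3 is the one of the 5 with any counts, it was 3.333 to 4.588 against 3.572 to 4.973 CPM. Their part in the repair genes' result was not tested.

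**Figure D1:**
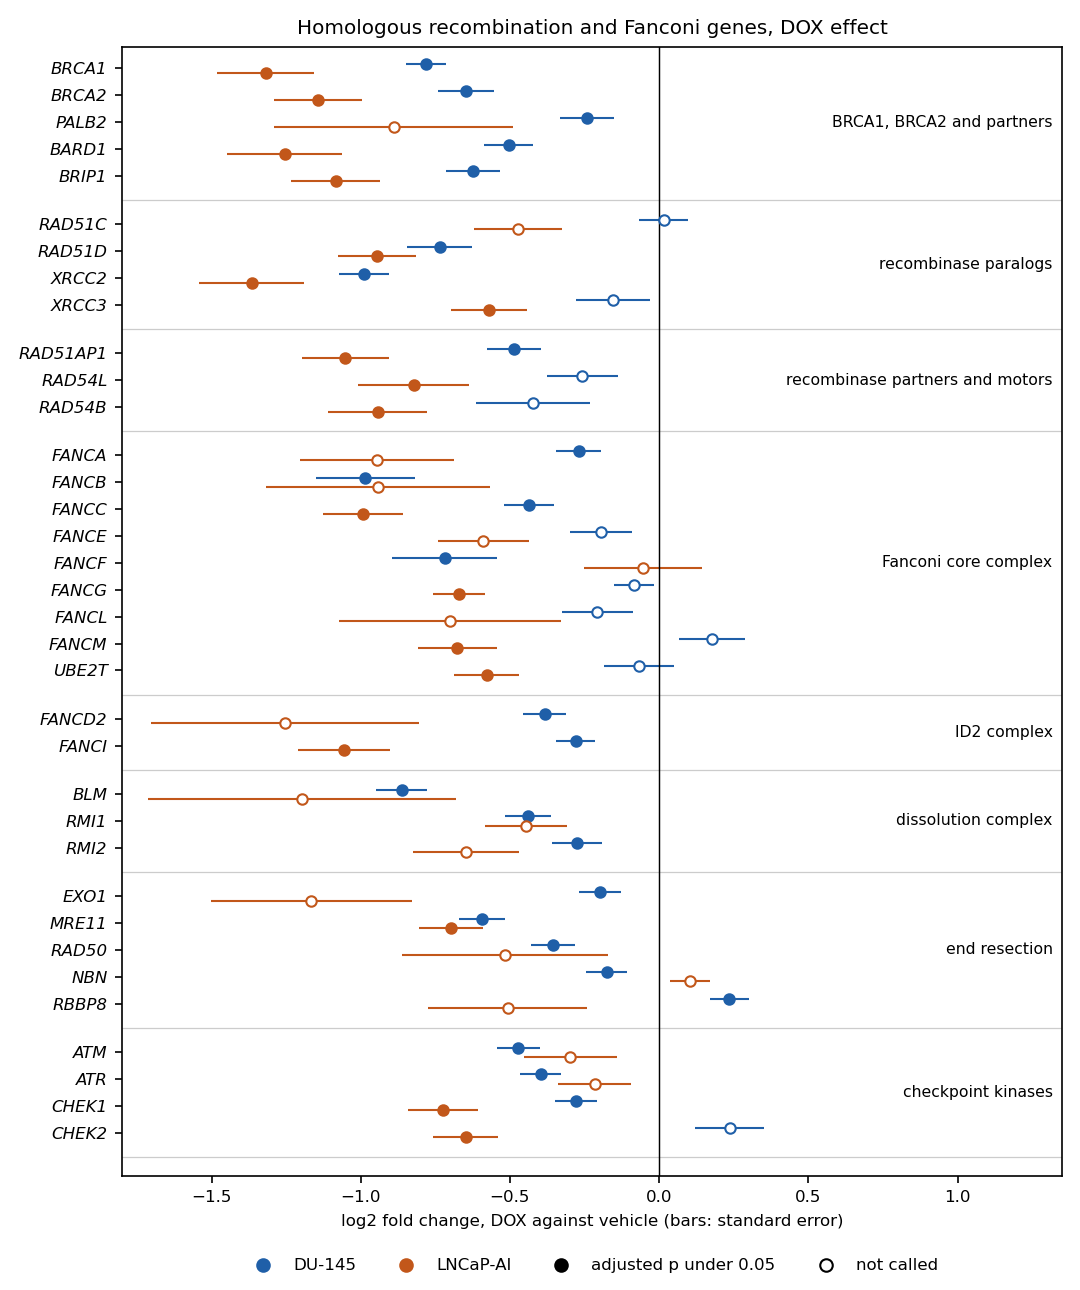
Log2 fold change of each of the 35 repair genes with DOX against vehicle (horizontal axis; bars are the standard error), grouped by role, in DU-145 (blue) and LNCaP-AI cells (orange), with filled points for an adjusted p under 0.05. Nearly all points lie left of 0, the lowest being XRCC2 in both lines at -0.99 and -1.37, and the orange bars of FANCD2, BLM, PALB2 and RAD50 are much wider than the blue.

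The calls in LNCaP-AI cells rested on few samples. Without DOX 2, and likewise without DOX 3, none of the 35 genes was called in LNCaP-AI cells and 1 gene of the whole table was. In these fits 24 of the 35 had an unadjusted p under 0.05, and the share of all genes at that threshold is not given here. Without DOX 1 the count of repair genes rose to 26. The number of all genes called in this line was 2043 with every sample kept. It reached at most 3539 when a sample was left out. When the division was entered in the fit as a covariate, although it is taken from the same counts, 31 of the 35 were lower. The number of all genes called, in either direction, rose to 6271 with that covariate. Within the sides the direction was the same: 34 of the 35 genes were lower with DOX both in DOX 2 and DOX 3 against vehicle 1 and in DOX 1 against vehicle 2 and vehicle 3, compared with 6644 of the 16030 genes tested. The median log2 difference of the 35 was -0.91 within the first side and -0.51 within the second, where those of all genes were -0.05 and 0.00. In DU-145 cells 22 to 27 of the 35 genes were called with any single sample left out, among 5973 to 7115 genes called in all. In a fit of all 12 samples, in which the lines share the estimate of the spread, 15 were lower and 0 were higher in DU-145 cells. The genes called in the whole table fell from 7033 to 4083 there. PALB2, FANCA, FANCD2, FANCI, BLM, RMI2, EXO1, RAD50, NBN and RBBP8 lost their calls in that fit.

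Lower in both lines were 11 of the 35 genes: BRCA1, BRCA2, BARD1, BRIP1, RAD51D, XRCC2, RAD51AP1, FANCC, FANCI, MRE11 and CHEK1. Of the 12984 genes tested in both lines 4.43% were called lower in both. Called lower in LNCaP-AI cells alone were 7, XRCC3, RAD54L, RAD54B, FANCG, FANCM, UBE2T and CHEK2. Called lower in DU-145 cells alone were 13, PALB2, FANCA, FANCB, FANCF, FANCD2, BLM, RMI1, RMI2, EXO1, RAD50, NBN, ATM and ATR. The share of all genes called lower in 1 line alone is not given here, so the 7 and the 13 have no matching background. Counting genes lower in both as well, the share of all genes tested that was lower was 25.3% for DU-145 and 5.52% for LNCaP-AI. A call in a single line does not show that the lines differ, and the difference itself is given further on. RAD51C, FANCE and FANCL were called in neither line, 0 of the 35 were higher in both lines, against 3.4% of the genes tested in both, and 0 were called in opposite directions, against 0.878%.

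The promoters of 4 genes lower in both lines are shown, those whose larger adjusted p of the lines was smallest, as the regulatory sequence beside which their fold changes can be read. Each is a window of 300 bases of GRCh38 on the strand of the gene, from upstream of the first base of its MANE Select transcript (GENCODE release 44) into the transcript, read from the reference genome. Capitals mark letters searched for on both strands: the E2F-type letters TTTGGCGC, TTTCCCGC, TTTGGCGG and TTTCGCGC, of which members of the E2F family are known to bind variants, the cell cycle homology region letters TTTGAA and TTCGAA, and CCAAT, the letters bound by NF-Y. The windows are BRCA1 at chr17:43125315-43125614 on the minus strand, XRCC2 at chr7:152676092-152676391 on the minus strand, BRCA2 at chr13:32315258-32315557 on the plus strand and FANCC at chr9:95317660-95317959 on the minus strand.
BRCA1: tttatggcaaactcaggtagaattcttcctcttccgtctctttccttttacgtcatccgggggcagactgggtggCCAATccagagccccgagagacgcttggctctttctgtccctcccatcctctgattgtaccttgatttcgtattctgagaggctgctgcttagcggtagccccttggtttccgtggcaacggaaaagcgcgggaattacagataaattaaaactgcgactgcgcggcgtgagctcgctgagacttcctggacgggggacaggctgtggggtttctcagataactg
XRCC2: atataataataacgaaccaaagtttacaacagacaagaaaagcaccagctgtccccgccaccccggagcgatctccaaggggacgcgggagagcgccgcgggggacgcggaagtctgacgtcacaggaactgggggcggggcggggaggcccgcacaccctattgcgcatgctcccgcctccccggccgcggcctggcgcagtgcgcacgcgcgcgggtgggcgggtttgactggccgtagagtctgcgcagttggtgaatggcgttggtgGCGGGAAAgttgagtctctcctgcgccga
BRCA2: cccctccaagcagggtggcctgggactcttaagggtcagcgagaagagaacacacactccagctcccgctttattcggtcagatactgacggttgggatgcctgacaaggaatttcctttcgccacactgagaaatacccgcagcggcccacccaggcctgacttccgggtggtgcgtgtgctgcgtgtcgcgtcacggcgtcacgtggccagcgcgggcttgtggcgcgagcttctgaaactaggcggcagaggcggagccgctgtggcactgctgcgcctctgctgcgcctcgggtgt
FANCC: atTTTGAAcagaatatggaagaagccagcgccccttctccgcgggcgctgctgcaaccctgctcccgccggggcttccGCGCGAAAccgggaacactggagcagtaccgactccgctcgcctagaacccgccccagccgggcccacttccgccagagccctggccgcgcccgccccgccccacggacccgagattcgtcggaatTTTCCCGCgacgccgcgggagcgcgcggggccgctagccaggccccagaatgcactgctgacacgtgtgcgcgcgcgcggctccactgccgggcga
XRCC2 held 1 match to the E2F-type letters on its reverse strand, FANCC held 2 and 1 match to the cell cycle homology region, BRCA1 held 1 CCAAT box and BRCA2 held none of these letters. In such windows around all MANE Select starts, E2F-type letters were in 5 of the 35 genes (XRCC2, FANCC, FANCD2, RMI2 and EXO1) against 4.44% of 19061 promoters. The cell cycle homology region was in 4 of 35 (BRIP1, FANCC, UBE2T and ATM) against 12.7%, and CCAAT was in 16 of 35 against 36.1%. Of the 11 genes lower in both lines 2 held E2F-type letters, 2 the cell cycle homology region and 4 CCAAT. Of the other 24 genes these numbers were 3, 2 and 12. A match says that the letters are present and not that a factor is bound there.

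BRCA1, BRCA2 and their partners were all lower with DOX in DU-145 cells (5 of 5), and 4 of the 5 were lower in LNCaP-AI cells. BRCA1, which directs a break towards recombination, lies on chromosome 17 from 43044295 to 43170245 (GRCh38, minus strand). It stood at 111, 108 and 108 CPM in the vehicle samples of DU-145 cells and at 63.5, 64.2 and 63.1 in the DOX samples. The log2 fold change was -0.78 (SE 0.0666, adjusted p = 1.41e-08), which left 58.1% of the vehicle level, with no overlap between the groups. In LNCaP-AI cells the same gene had 157, 118 and 107 CPM with vehicle and 46.9, 51.7 and 54.5 with DOX. The vehicle samples were widely spread, vehicle 1 being the highest, and the DOX samples lay close together far below them. The log2 fold change was -1.32 (SE 0.164, adjusted p = 0.0128), the smallest adjusted p of the 35 genes in this line, and it was -1.57 and -1.26 within the sides of the division.

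BARD1, the partner with which BRCA1 forms a ubiquitin ligase, had 163, 111 and 106 CPM in the LNCaP-AI vehicle samples and 47.2, 56.6 and 55.2 in the DOX samples. Vehicle 1 was again the highest sample, and the log2 fold change was -1.25 (SE 0.192, adjusted p = 0.0171). In DU-145 cells it went from 46.9, 42.3 and 44.5 CPM to 33.4, 29.6 and 31.5, which is -0.50 on the log2 scale (SE 0.0815, adjusted p = 3.94e-05). BRCA2, which loads the recombinase on single-stranded DNA and lies on chromosome 13 from 32315086 to 32400268 on the plus strand, had 269.7, 192 and 199 CPM with vehicle and 94.0, 104 and 101 with DOX in LNCaP-AI cells. The log2 fold change was -1.14 (SE 0.148, adjusted p = 0.0135) and left 45.3% of the vehicle level. In DU-145 cells BRCA2 had 86.8, 67.9 and 89.2 CPM with vehicle and 49.3, 56.5 and 50.1 with DOX. Vehicle 2 was the lowest of its group and still above every DOX sample (-0.65, SE 0.0931, adjusted p = 1.06e-05).

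BRIP1, a helicase that binds BRCA1, changed from 46.3, 39.6 and 45.6 CPM to 25.4, 29.6 and 30.5 in DU-145 cells (-0.62, SE 0.0908, adjusted p = 1.21e-05). It changed from 40.4, 35.4 and 35.2 to 20.8, 14.98 and 16.5 in LNCaP-AI cells (-1.08, SE 0.150, adjusted p = 0.0147). The groups did not overlap in either line. PALB2, the bridge between BRCA1 and BRCA2, was the exception of this group. Its value was -0.24 in DU-145 cells (adjusted p = 0.0313), and that call was lost with DESeq2, without the filter on low counts, in a fit of all 12 samples and without any of 4 single samples (vehicle 3, DOX 1, DOX 2 or DOX 3). In LNCaP-AI cells it was -0.89 with an SE of 0.399 and was not called, and vehicle 1 at 25.6 CPM lay below DOX 1 at 31.7.

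**Figure D2:**
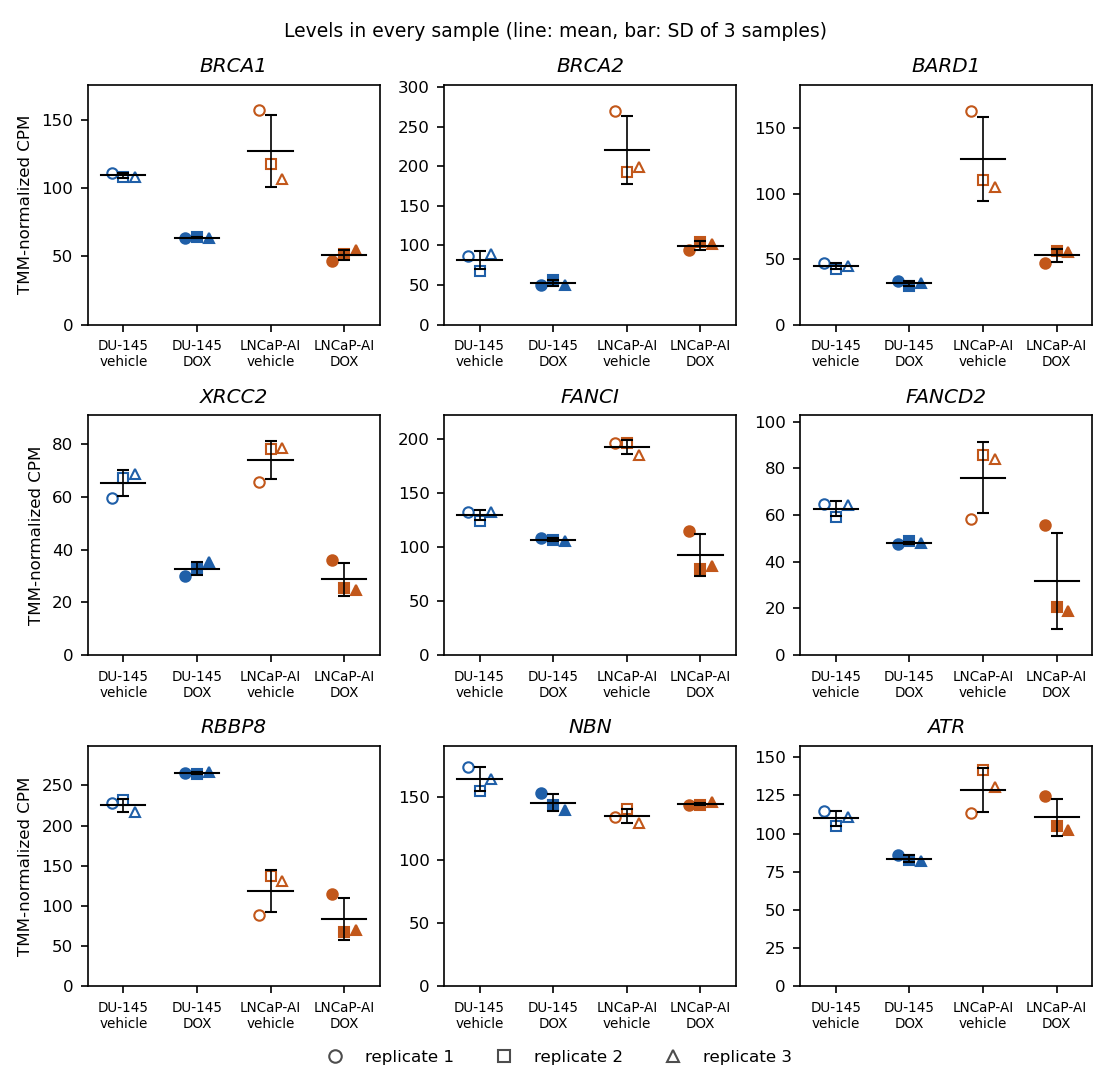
Levels (TMM-normalized CPM, linear axis from 0, normalized within each line) of 9 repair genes in each of the 12 samples, open symbols for vehicle and filled for DOX, with marker shapes for replicate numbers, the mean as a line and the SD of 3 samples as a bar. BRCA1, BRCA2, BARD1, XRCC2 and FANCI show separate groups in both lines, whereas for FANCD2 vehicle 1 and DOX 1 of LNCaP-AI cells meet at 58.4 and 55.6 CPM.

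The paralogs of the recombinase, which form small complexes that help it assemble, were lower in 2 of 4 cases in DU-145 cells and in 3 of 4 in LNCaP-AI cells. XRCC2, on chromosome 7 from 152644776 to 152676193 on the minus strand, had the smallest adjusted p of the 35 genes in DU-145 cells and the lowest fold change in both lines. It had 59.6, 67.2 and 68.6 CPM with vehicle and 30.1, 33.0 and 35.1 with DOX in DU-145 cells, so that 50.4% was left (-0.99, SE 0.0835, adjusted p = 1.28e-08). In LNCaP-AI cells it had 65.7, 78.0 and 78.3 CPM and 36.0, 25.3 and 24.8 CPM, which is 38.8% (-1.37, SE 0.175, adjusted p = 0.0132). Here vehicle 1 was the lowest vehicle sample and DOX 1 the highest DOX sample, with a wide gap between them. RAD51D, the direct partner of XRCC2, had 30.1, 30.6 and 26.9 CPM with vehicle and 15.7, 15.9 and 21.0 with DOX in DU-145 cells (-0.74, SE 0.110, adjusted p = 1.63e-05). LNCaP-AI cells had 27.002, 22.7 and 22.5 against 13.6, 12.5 and 11.5 (-0.94, SE 0.130, adjusted p = 0.0147). XRCC3 and RAD51C form another complex. XRCC3 stood at -0.57 in LNCaP-AI cells on the log2 scale (adjusted p = 0.0382), a call that was also lost without vehicle 1 or vehicle 3, and at -0.15 in DU-145 cells (adjusted p = 0.316). For RAD51C the values were -0.47 (adjusted p = 0.0868) and 0.01 (adjusted p = 0.899), the latter of no stable sign.

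RAD51AP1, RAD54L and RAD54B help the recombinase to pair strands, the last 2 as DNA motors. All 3 were lower in LNCaP-AI cells and 1 of the 3 in DU-145 cells. RAD51AP1 had 48.9, 47.6 and 42.7 CPM with vehicle and 26.96, 20.02 and 20.1 with DOX in LNCaP-AI cells (-1.05, SE 0.146, adjusted p = 0.0148). In DU-145 cells it had 32.7, 37.0 and 38.9 and 23.8, 26.1 and 27.5 (-0.49, SE 0.0910, adjusted p = 1.80e-04). The groups were apart in both lines. The log2 change of RAD54L was -0.82 (adjusted p = 0.0397) in LNCaP-AI cells and -0.26 (adjusted p = 0.0765) in DU-145 cells, and that of RAD54B was -0.94 (adjusted p = 0.0225) and -0.42 (adjusted p = 0.0704). The call of RAD54L in LNCaP-AI cells was lost without any single sample except DOX 1, and that of RAD54B also without vehicle 3.

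The Fanconi core complex, the ubiquitin ligase of the pathway, was counted together with UBE2T, which is not a subunit of it. This group had 4 of 9 genes lower in each line, UBE2T being among those of LNCaP-AI cells. FANCC was the one gene lower in both. FANCC, a subunit of the complex on chromosome 9 from 95099054 to 95426796 on the minus strand, had 42.2, 35.2 and 32.5 CPM with vehicle and 20.1, 17.2 and 17.9 with DOX in LNCaP-AI cells. This left 50.3% of the vehicle level (-0.99, SE 0.133, adjusted p = 0.0142). In DU-145 cells FANCC had 33.0, 34.5 and 35.3 and 24.5, 25.9 and 25.5 CPM, a smaller fall to 73.9% (-0.44, SE 0.0825, adjusted p = 2.08e-04). FANCG, an adaptor of the complex, had 65.4, 58.4 and 56.9 CPM with vehicle and 37.3, 39.5 and 36.7 with DOX in LNCaP-AI cells (-0.67, SE 0.0885, adjusted p = 0.0139). In DU-145 cells it had 77.8, 80.2 and 77.4 and 72.2, 75.4 and 74.3, and its change of -0.08 did not pass (adjusted p = 0.313) although the groups did not overlap.

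FANCM, a translocase that recruits the complex to a stalled fork, had 29.8, 36.8 and 30.2 CPM with vehicle and 22.5, 18.7 and 19.3 with DOX in LNCaP-AI cells (-0.68, SE 0.132, adjusted p = 0.0277). In DU-145 cells it had 40.0, 29.1 and 43.6 and 38.9, 45.2 and 43.9 CPM, with a change of 0.18 on the log2 scale that was not called (adjusted p = 0.189). The DU-145 groups overlapped, vehicle 2 being the lowest sample of all. UBE2T, the conjugating enzyme that works with the complex, had -0.58 (adjusted p = 0.0253) in LNCaP-AI cells and -0.07 (adjusted p = 0.666) in DU-145 cells. The calls of FANCM and UBE2T in LNCaP-AI cells were also lost without vehicle 2 or vehicle 3.

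In the opposite pattern of calls, FANCB, which sits in the catalytic part of the complex, had 7.04, 7.71 and 7.56 CPM with vehicle and 3.48, 3.4002 and 4.38 with DOX in DU-145 cells (-0.98, SE 0.167, adjusted p = 6.56e-05). In LNCaP-AI cells it had 9.11, 13.3 and 11.3 and 9.14, 4.86 and 3.48, and the fold change of -0.94 came with an SE of 0.377 (adjusted p = 0.152). Vehicle 1 and DOX 1 met at 9.11 and 9.14 CPM. FANCF, another adaptor, changed by -0.72 on the log2 scale in DU-145 cells (adjusted p = 0.00207) and -0.05 in LNCaP-AI cells (adjusted p = 0.867), the latter without a stable sign. FANCA, the subunit most often mutated in Fanconi anemia, had -0.27 (adjusted p = 0.00586) and -0.95 (adjusted p = 0.0634), the 3 LNCaP-AI samples of each group not overlapping. FANCE had -0.19 (adjusted p = 0.127) in DU-145 and -0.59 (adjusted p = 0.0555) in LNCaP-AI cells, and FANCL, the ligase subunit itself, -0.21 (adjusted p = 0.155) and -0.70 (adjusted p = 0.258).

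FANCI and FANCD2 form the ID2 complex, the pair that the core complex marks with ubiquitin. FANCI had 197, 197 and 186 CPM with vehicle and 115, 80.2 and 83.0 with DOX in LNCaP-AI cells. The vehicle samples were close together, DOX 1 lay between them and the other DOX samples, and the log2 fold change was -1.06 (SE 0.154, adjusted p = 0.0158). In DU-145 cells FANCI had 132, 124 and 133 and 108, 107 and 106, which is -0.28 on the log2 scale (SE 0.0658, adjusted p = 0.00155). FANCD2 had 58.4, 85.5 and 83.9 CPM with vehicle and 55.6, 20.7 and 19.0 with DOX in LNCaP-AI cells, values shown because they follow the division of the samples as well as the treatment, a choice made after they were seen. The groups were apart by a narrow margin, and the log2 fold change of -1.25 had an SE of 0.450 (adjusted p = 0.120). Within the sides it was -1.55 and -0.61. In DU-145 cells FANCD2 was called at -0.38 (adjusted p = 2.03e-04).

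BLM, RMI1 and RMI2 form the complex that dissolves joined DNA molecules, and all 3 were lower in DU-145 cells whereas none was called in LNCaP-AI cells. The helicase BLM had 52.7, 44.5 and 50.4 CPM with vehicle and 28.1, 27.6 and 25.6 with DOX in DU-145 cells (-0.86, SE 0.0856, adjusted p = 1.12e-07). In LNCaP-AI cells it had 29.2, 50.2 and 45.6 and 33.5, 10.8 and 10.1. DOX 1 exceeded vehicle 1, so the groups overlapped, and the log2 fold change of -1.20 had an SE of 0.516 (adjusted p = 0.177). Within the sides it was -1.47 and -0.52. RMI1 had -0.44 (adjusted p = 8.03e-05) in DU-145 and -0.45 (adjusted p = 0.0875) in LNCaP-AI cells, and RMI2 -0.27 (adjusted p = 0.0102) and -0.65 (adjusted p = 0.0641).

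End resection, which trims a break to single strands, was the group with a gene that went up. Of its 5 genes 4 were lower and RBBP8 was higher in DU-145 cells, while only MRE11 was called in LNCaP-AI cells. MRE11, the nuclease of the MRE11, RAD50 and NBN complex, had 51.5, 52.8 and 57.2 CPM with vehicle and 36.5, 34.3 and 36.3 with DOX in DU-145 cells (-0.59, SE 0.0773, adjusted p = 3.27e-06). LNCaP-AI cells had 75.6, 71.1 and 60.8 and 45.1, 41.5 and 41.3 (-0.70, SE 0.107, adjusted p = 0.0171). The groups were apart in each line. RBBP8 encodes CtIP, the cofactor of MRE11, and had 228, 232 and 217 CPM with vehicle and 266, 264 and 266 with DOX in DU-145 cells. The DOX samples were almost equal and all above the vehicle samples, at 118% of the vehicle level (0.23, SE 0.0652, adjusted p = 0.00542), where 29.6% of all genes tested had every DOX sample above every vehicle sample. This call was lost only in the fit of all 12 samples among the alternatives run. In LNCaP-AI cells RBBP8 had 88.7, 137 and 131 and 114, 67.1 and 69.4 CPM, which overlapped (-0.51, SE 0.266, adjusted p = 0.255).

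RAD50, the ATPase of the MRE11 complex, had -0.36 (adjusted p = 5.28e-04) in DU-145 cells and -0.52 (SE 0.344, adjusted p = 0.365) in LNCaP-AI cells. NBN, its regulatory subunit, had -0.18 (adjusted p = 0.0417) in DU-145 cells, a call lost without vehicle 1, DOX 2 or DOX 3, without the filter on low counts and in a fit of all 12 samples. In LNCaP-AI cells NBN was the one gene of the 35 with a positive value, 0.10 (adjusted p = 0.361), and it was 0.11 and 0.09 within the sides. Every DOX sample of LNCaP-AI cells lay above every vehicle sample for NBN, as for 19.8% of all genes tested. EXO1, a second nuclease, had -0.20 (adjusted p = 0.0245) in DU-145 cells, lost without vehicle 1 or DOX 2 and in the same pair of fits, and -1.17 (SE 0.336, adjusted p = 0.0732) in LNCaP-AI cells.

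The checkpoint kinases signal a break and hold the cell cycle. ATM, the kinase that responds to double-strand breaks, had 93.3, 93.1 and 95.9 CPM with vehicle and 63.0, 72.3 and 68.1 with DOX in DU-145 cells (-0.47, SE 0.0714, adjusted p = 1.89e-05). The LNCaP-AI samples had 47.8, 66.5 and 60.2 and 54.1, 43.9 and 43.99, with overlap, vehicle 1 being low and DOX 1 high (-0.30, SE 0.155, adjusted p = 0.251). ATR, which responds to single-stranded DNA at stalled forks, was likewise called in DU-145 cells (-0.40, adjusted p = 7.37e-05) and not in LNCaP-AI cells (-0.22, adjusted p = 0.282). CHEK1, the kinase below ATR, was lower in both lines, at -0.28 (adjusted p = 0.00275) and -0.72 (adjusted p = 0.0186). CHEK2, the kinase below ATM, had 44.7, 45.9 and 38.4 CPM with vehicle and 30.0, 26.3 and 26.0 with DOX in LNCaP-AI cells (-0.65, SE 0.110, adjusted p = 0.0205). In DU-145 cells it had 21.6, 28.1 and 30.8 and 28.9, 29.8 and 35.9, with a change of 0.24 on the log2 scale that was not called (adjusted p = 0.0944). The DU-145 groups overlapped, vehicle 1 being well below the others.

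**Figure D3:**
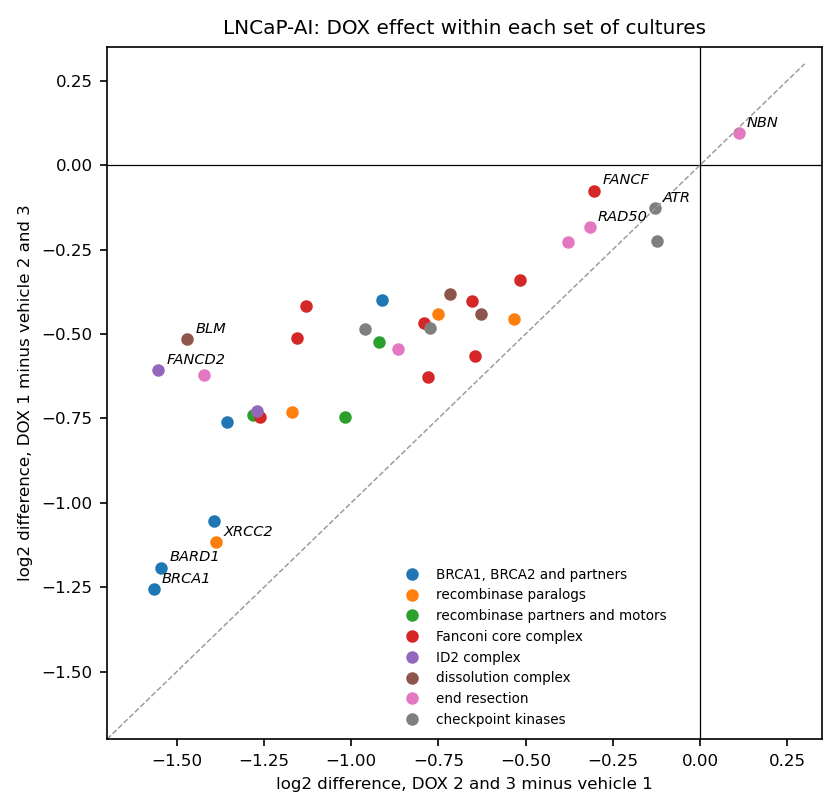
Log2 CPM difference of each of the 35 repair genes with DOX in LNCaP-AI cells within the side that holds vehicle 1, DOX 2 and DOX 3 (horizontal axis) and within the side that holds vehicle 2, vehicle 3 and DOX 1 (vertical axis), colored by role, with equal values on the dashed line. NBN alone lies above 0 on both axes, at 0.11 and 0.09, and BRCA1 is lowest at -1.57 and -1.26.

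The DOX effect was compared between the lines as an interaction over all 12 samples, in which line and culture medium cannot be told apart. It was called for 5 of the 35 genes (9.18% of all genes tested), FANCG, FANCI, CHEK2, FANCM and FANCC. In each the log2 fold change with DOX was more negative in LNCaP-AI cells. Of the 16800 genes tested 3.76% were called in that direction and 5.43% in the other. The difference was -0.85 on the log2 scale for CHEK2 (SE 0.191, adjusted p = 0.0221) and -0.83 for FANCM (SE 0.214, adjusted p = 0.0374), the genes whose own values in DU-145 cells were above 0. It was -0.74 for FANCI (SE 0.167, adjusted p = 0.0221), -0.55 for FANCG (SE 0.0914, adjusted p = 0.00567) and -0.52 for FANCC (SE 0.138, adjusted p = 0.0412). BRCA1 and XRCC2, which had the lowest pair of fold changes in each line among the genes lower in both, were not among the 5. The number called was 18 without LNCaP-AI DOX 1 and 1 without LNCaP-AI DOX 2 or DOX 3. It was 2 without any single DOX sample of DU-145 cells, 3 without DU-145 vehicle 1 or vehicle 3, and 8 without LNCaP-AI vehicle 1. With each sample left out in turn, 737 to 3471 genes of the whole table were called, against 1543 with all 12.

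In the vehicle samples 19 of the 35 genes were called between the lines, a share of 54.3% where 65.1% of all genes tested were called: 8 were higher and 11 lower in LNCaP-AI than in DU-145 cells, while 35% of the 15628 genes tested were called higher and 30.2% lower. The vehicle samples of 1 line each were compared, so the result holds for these lines as cultured. Line and culture medium cannot be told apart in it. FANCF was 4.41-fold higher in LNCaP-AI cells (2.14, SE 0.205, adjusted p = 1.08e-04), BARD1 2.43-fold (1.28, SE 0.169, adjusted p = 4.88e-04), BRCA2 2.32-fold (1.21, SE 0.163, adjusted p = 5.25e-04) and RAD54L 2.28-fold (1.19, SE 0.118, adjusted p = 1.32e-04). The other higher genes were RAD51C, CHEK2, RMI1 and FANCI, with log2 differences of 0.35 to 0.50. FANCA had the lowest value in LNCaP-AI cells (-1.40, SE 0.107, adjusted p = 4.35e-05), followed by RBBP8 (-1.14, SE 0.173, adjusted p = 9.43e-04), FANCL (-1.03, SE 0.247, adjusted p = 0.00821) and ATM (-0.91, SE 0.135, adjusted p = 8.53e-04). EXO1, FANCG, NBN, RAD51D, BRIP1, CHEK1 and RMI2 were lower by 0.29 to 0.63 on the log2 scale. Of 12 alternatives the call was lost in 10 for RMI2, in 5 for RMI1, in 4 each for CHEK1 and CHEK2, in 3 for RAD51C, in 2 for RAD51D and in 1 for BRIP1.

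Per kilobase of MANE Select transcript, with all 12 samples normalized together, UBE2T had the highest mean of the 35 genes in both lines, at 82.4 ± 20.4 CPM per kilobase (SD, n = 3) in DU-145 and 90.9 ± 3.61 in LNCaP-AI vehicle samples. RAD54B was the lowest, at 1.64 ± 0.195 and 1.68 ± 0.114. In DU-145 cells RBBP8 lay within that spread at 73.1 ± 3.03. UBE2T stood at 70.6, 105.9 and 70.7 and RBBP8 at 74.5, 75.3 and 69.7 CPM per kilobase in the DU-145 vehicle samples, so that vehicle 2 alone set UBE2T apart. Both were well above NBN at 37.7 ± 2.44, FANCG at 32.6 ± 0.698 and EXO1 at 32.1 ± 1.28. In LNCaP-AI cells the order after UBE2T was FANCI at 38.1 ± 1.05, RMI1 at 34.6 ± 5.25 and RBBP8 at 34.0 ± 7.92, neighbours that lay within their spread. BRCA1 was level in the lines, at 16.4 ± 0.386 and 16.8 ± 3.25, while BRCA2 stood at 7.22 ± 1.03 in DU-145 and 17.2 ± 3.09 in LNCaP-AI cells. These levels assume that each gene is read as its MANE Select transcript.

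**Figure D4:**
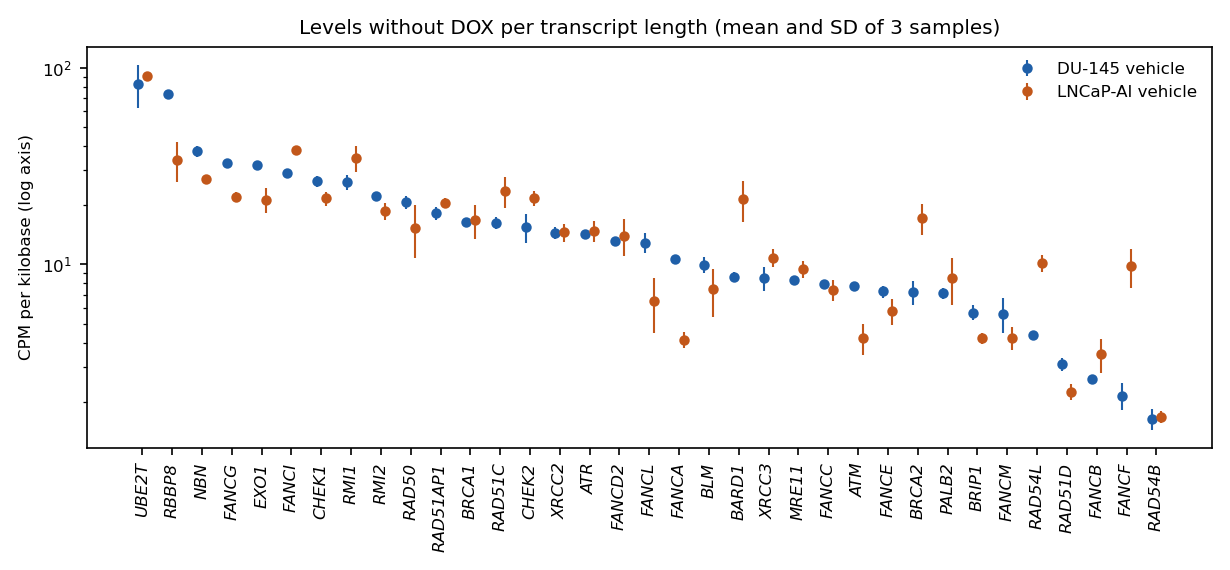
Level of each of the 35 repair genes in the vehicle samples, as CPM per kilobase of MANE Select transcript on a log axis, in DU-145 (blue) and LNCaP-AI cells (orange), as mean and SD of 3 samples, in order of the level in DU-145 cells. UBE2T has the highest mean and RAD54B the lowest in both lines, UBE2T and RBBP8 lying within their SD in DU-145 cells, and the orange points of FANCF, RAD54L, BRCA2 and BARD1 stand above the blue.

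Genes of the same or neighbouring pathways that are not among the 35 were counted in the same fits. Of 44 such genes tested, 14 were lower and 9 were higher in DU-145 cells (median log2 fold change -0.12), and 14 were lower and 2 higher in LNCaP-AI cells (median -0.30). In DU-145 cells 31.8% were lower and 20.5% higher, against 25.3% and 26.3% of all genes tested. In LNCaP-AI cells these shares were 31.8% and 4.55%, against 5.52% and 7.22%. The smallest adjusted p values in DU-145 cells belonged to CLSPN, the mediator of CHEK1 (-0.84), DNA2, a resection nuclease (-1.01), MCM8 (-0.65), POLQ, the polymerase of theta-mediated end joining (-0.88), and CENPX, which was higher (0.69). In LNCaP-AI cells they belonged to DNA2 (-0.96), POLQ (-1.18), the ATR activator TOPBP1 (-0.85), the resolvase GEN1 (-1.04) and USP1, which removes ubiquitin from FANCD2 (-0.76). The others higher in DU-145 cells were RPA2, SWI5, SFR1, ERCC1, TOP3A, BABAM1, BABAM2 and SEM1, named with CENPX after their values were seen, with log2 fold changes of 0.21 to 0.54. In LNCaP-AI cells ZSWIM7 (0.40) and BABAM2 (0.36) were higher.

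End joining rejoins broken ends without a template. Of 17 genes tested 4 were lower and 0 were higher in DU-145 cells (median -0.14), namely RIF1 (-0.43), MAD2L2 (-0.24), POLM (-0.44) and PAXX (-0.26), and SHLD1 at -0.70 was not called. The share lower was 23.5%, close to the 25.3% of all genes tested in that line. In LNCaP-AI cells 2 were lower, MAD2L2 (-0.56) and RIF1 (-0.75), with DCLRE1C, XRCC5 and PRKDC at -0.63, -0.43 and -0.63 not called (median -0.28). The share lower there was 11.8%, against 5.52% of all genes tested. RIF1 and MAD2L2 both act to restrain resection, and TP53BP1, SHLD1, SHLD2 and SHLD3, which act with them, were called in neither line. DESeq2 called 1 end-joining gene in DU-145 and 5 in LNCaP-AI cells.

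Because recombination is tied to S and G2 phase, proliferation markers were counted beside the repair genes. Of 15 such genes 8 were lower and 1 were higher in DU-145 cells (median log2 fold change -0.23), with CCNA2 (-1.04), TOP2A (-0.69), CCNB1 (-0.64), MCM4 (-0.54) and TK1 (-0.46) having the smallest adjusted p values and MCM7 the higher one (0.17). In LNCaP-AI cells 10 were lower and 0 higher (median -0.89). The shares lower were 53.3% in DU-145 and 66.7% in LNCaP-AI cells, against 25.3% and 5.52% of all genes tested. MKI67 and CCNA2 had the lowest values, both -1.28, and the smallest adjusted p values belonged to TK1 (-0.90), MCM2 (-0.80), CCNB1 (-0.999), MCM7 (-0.67) and CDK1 (-0.88). The summed level of the 15 markers was 5804 to 6065 CPM in vehicle and 4458 to 4747 CPM in DOX samples of DU-145 cells, and 4671 to 4845 against 2120 to 3164 CPM in LNCaP-AI cells. The summed level of the 35 repair genes was 2182 to 2272 CPM against 1833 to 1846 CPM in DU-145 cells, and 2381 to 2518 against 1377 to 1710 CPM in LNCaP-AI cells. In LNCaP-AI cells DOX 1 was the highest DOX sample for both sums. In bulk RNA fewer cells in S and G2 phase and less RNA of these genes per cell cannot be told apart, and the part of the cell cycle in the result was not tested.

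**Figure D5:**
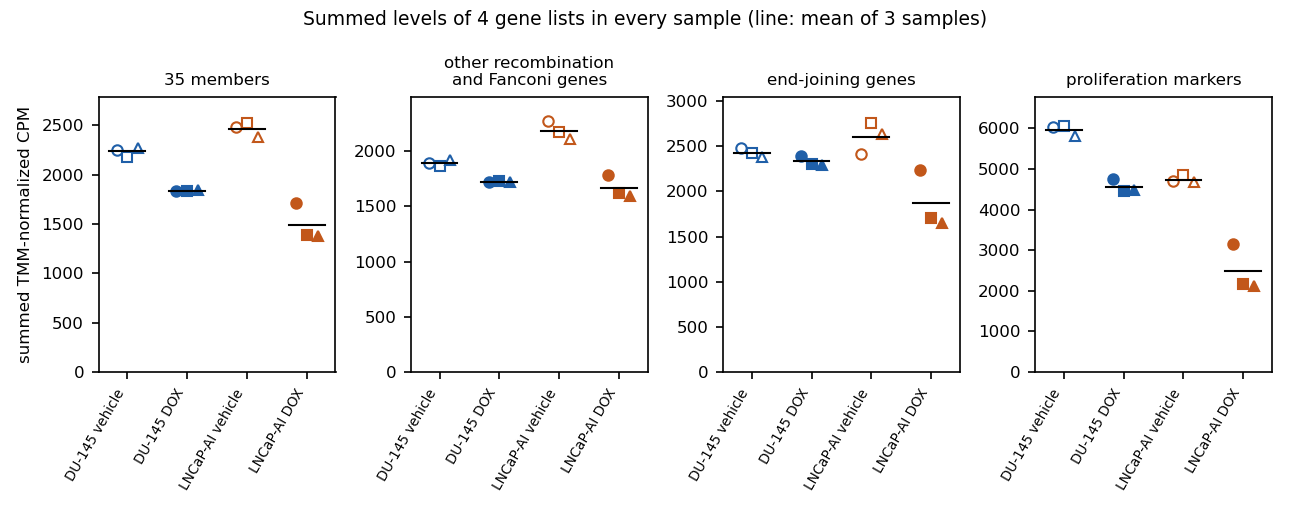
Summed TMM-normalized CPM (linear axis from 0, normalized within each line) of the 35 repair genes, 45 other recombination and Fanconi genes, 18 end-joining genes and 15 proliferation markers in each of the 12 samples, open symbols for vehicle, filled for DOX, circles, squares and triangles for replicates 1, 2 and 3, and a line for the mean. The sums include ATRIP and NHEJ1, which were not tested. The DOX samples lie below the vehicle samples in every panel except for end joining, where DU-145 values of 2298 to 2394 with DOX overlap 2377 to 2481 with vehicle.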

How the data were processed

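RNA was sequenced from 12 samples, 3 in each of 4 groups. Per the study's methods, libraries were TruSeq stranded mRNA. The submitters' processing notes name CASAVA 1.8.2, STAR 2.7.0, DESeq2 1.24.0 and GRCh38.p7, and the counting tool and its strand setting are not given in the sources used here. The authors deposited raw counts per gene without normalization. The 35 genes, the other gene lists and the tests were chosen with earlier results of these data known, so no list is independent evidence. Samples were grouped by their titles.

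Counts were tested in R 4.3.3 with edgeR 4.0.16 (TMM, glmQLFit, glmQLFTest) on every gene that reached 10 counts in 3 or more samples, with Benjamini-Hochberg adjustment. DOX was compared with vehicle within each line, the effects between lines as an interaction over 12 samples, and the vehicle samples between lines. The standard error is the log2 fold change divided by the square root of F. CPM are TMM-normalized within a line, log2 CPM used a prior count of 2, and levels per kilobase used joint normalization and MANE Select lengths (GENCODE release 44). Promoters were searched on both strands; windows around the MANE Select start were added after seeing the data, since the start of BRCA1 in the promoter table lies 44963 bases away. Steps were tested on simulated data that had the same spread for every gene and no division of the samples. That test does not cover the division seen among the LNCaP-AI samples. Counts of 3 or fewer were taken as the floor, which covers counting error only.

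Alternatives were DESeq2 1.42.0, upper-quartile normalization, DESeq2's size factors, no filter, a minimum of 1 CPM in 3 samples, one fit for all 12 samples, the replicate number as a block, the division of the LNCaP-AI samples on their first principal component (entered as a covariate, or values within its sides) and each sample left out. Replicates differed beyond sampling noise (chi-square per degree of freedom 2.527 or more). Each of the 35 genes is named. Values in every sample are given for the 10 genes of lowest adjusted p in each line, for those with a called interaction and for those called higher, and of each other list the 5 of lowest adjusted p in a line are named. MUC1 checks the labels, and 2 luminal markers are not reported here. Promoters are shown for at most 4 genes lower in both lines, none on chromosome 8. No protein table was used.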

Additional observations from a re-analysis of the deposited data

Results flagged for a closer look

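The DOX effect differed between the lines by a test of the difference itself, edgeR's interaction, for 5 of the 35 genes. The effect in LNCaP-AI cells minus that in DU-145 cells was -0.55 on the log2 scale for FANCG (adjusted p = 0.00567), -0.74 for FANCI (adjusted p = 0.0221), -0.85 for CHEK2 (adjusted p = 0.0221), -0.83 for FANCM (adjusted p = 0.0374) and -0.52 for FANCC (adjusted p = 0.0412). FANCG kept its call under 17 of 18 alternatives, CHEK2 under 14, FANCI under 11, FANCM under 9 and FANCC under 6. Without LNCaP-AI DOX 2 or DOX 3 only FANCG stayed below the threshold. The levels of proliferation markers were also lower with DOX in both lines, and their part in these differences was not tested. Line and culture medium cannot be told apart in these differences.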

How the results depend on the processing

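In DU-145 cells the counts of repair genes called changed by more than 1.5 times in the fit of all 12 samples, with 15 called, 15 lower and 0 higher, and 4083 genes called in all; DESeq2 called 1 end-joining gene. In LNCaP-AI cells DESeq2 called 3517 genes, of which 5 were end-joining genes, the fit of all 12 samples called 3933, and the division of the samples entered as a covariate gave 31 repair genes, 31 lower, among 6271 genes. Lower in both lines were 17 repair genes with DESeq2 and 20 with that covariate. The interaction was called for 10 genes with DESeq2, 9 lower and 1 higher (NBN), and upper-quartile normalization also gave 1 higher (NBN). In the comparison of vehicle samples 7 genes were lower without the filter. In the 100 bases nearest the start, 1 of the matched genes held the cell cycle homology region and 8 held CCAAT. The cause of these changes was not tested.

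The replicate numbers were tried as a block. Deviations of same-numbered samples correlated at -0.0912 to 0.127 in DU-145 cells, where 2 of 3 vehicle samples matched their own number best. In LNCaP-AI cells they correlated at -0.94 to -0.812, and 0 of 3 matched their own number best. There vehicle 1 and DOX 1 lie on opposite sides of the division, so the check cannot show whether the numbers pair the samples. With the replicate block 26 repair genes were called in DU-145 cells, 2 of them higher (RBBP8 and CHEK2). In LNCaP-AI cells the block left 0 repair genes, 0 lower and 0 genes in all, with 22 repair genes at an unadjusted p under 0.05, 0 of the other recombination genes, 0 end-joining genes and 0 proliferation markers, hence 0 lower in both lines. The interaction with the block had 0 repair genes, 0 lower, with 11 at an unadjusted p under 0.05. The shares of all genes at that unadjusted threshold with the block are not given here.

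With each sample left out in turn, DU-145 cells gave 22 to 27 repair genes (21 to 25 lower, 1 to 2 higher), 5973 to 7115 genes in all, 20 to 24 other recombination genes, 1 to 5 end-joining genes and 7 to 11 proliferation markers. LNCaP-AI cells gave 0 to 26 repair genes (0 to 26 lower), 1 to 3539 genes in all, 0 to 22 other recombination genes, 0 to 8 end-joining genes and 0 to 15 proliferation markers, each lowest without DOX 2 or DOX 3. Lower in both lines were 0 to 18. The interaction gave 1 to 18 (1 to 17 lower, 0 to 1 higher), the 1 higher being FANCF without LNCaP-AI DOX 1. The vehicle samples gave 15 to 24 (8 to 12 lower, 5 to 12 higher). Signs reversed for 3 uncalled values: RAD51C in DU-145 cells at -0.013 with upper-quartile normalization and -0.045 to 0.066 with samples left out, UBE2T in DU-145 cells at -0.18 to 0.14, and FANCF in LNCaP-AI cells at 0.0073 with upper-quartile normalization and -0.16 to 0.16.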

Other observations

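Across the 35 repair genes the log2 fold changes of the lines had a Pearson correlation of 0.414 and a Spearman correlation of 0.482, compared with 0.296 and 0.336 over the 12984 genes tested in both lines. These are correlations across genes, which are not independent replicates, and the lines share no samples.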
